A study of Mus musculus with 4 samples.

Results

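The genes examined here are the 5 subunits of the transcription factor NF-kappa B (Nfkb1, Nfkb2, Rel, Rela and Relb) and 5 genes whose proteins hold it back or modulate it in a feedback loop (Nfkbia, Nfkbie, Nfkbid, Nfkbiz and Tnfaip3). They were taken by symbol from gene tables of 55401 genes, and all 10 were found in every library. All 10 passed the minimum level of 10 CPM (counts scaled to library size). Here and below this minimum is a mean over the 4 libraries, so a gene that passes can be lower in single libraries. RNA was sequenced from lung T cells of C57BL/6J mice that had been sorted for CD3 and CD8. The mice belonged to a model that the labels call IPF-LC or to one called LC, neither of which is spelled out, and were given a CD4-depleting antibody or its isotype control. Each of these 4 combinations is 1 library, so no value has a replicate error and no pair of libraries can be compared against the spread between mice. No genetic change, age or number of mice per library is given in the labels. Libraries held between 14946569 and 16217672 counts and between 14657 and 16415 genes with a count.

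NF-kappa B is a family of dimers made from RelA, RelB, c-Rel and the processed products of Nfkb1 (p105 to p50) and Nfkb2 (p100 to p52). In a resting T cell, inhibitors of the IkB family hold the dimers in the cytoplasm. Engagement of the T cell receptor, CD28 or a TNF family receptor activates the IkB kinases, the inhibitors are degraded, and the dimers enter the nucleus. Among the genes that the dimers switch on are several of their own subunits and inhibitors, which makes the pathway self-limiting.

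Because these genes are known both to encode and to answer to NF-kappa B, their promoters were searched for the factor's 10-base consensus on both strands. The windows were the 250 bases before each RefSeq transcript start (GRCm38.p6). Promoter windows were matched for 7 of the 10 genes, and 6 of these 7 (Nfkb2, Rel, Nfkbia, Nfkbid, Nfkbie and Tnfaip3) held at least 1 match, while Rela held none. Of all 27025 genes with a window, 8.23% held a match. By window, 8 of the 12 member windows held a match, beside 7.25% of all 32851 windows. Annotated exons covered 250, 167 and 234 of the 250 bases in the Nfkb2 windows. They covered 110 in the first Tnfaip3 window, 58 in that of Rela and 1 in that of Rel. Overlapping matches and matches that read on both strands occur in Nfkb2, Rel, Nfkbid and Tnfaip3. The sequences are shown because 6 genes of the loop share these letters close to their starts. A match describes letters and shows neither binding nor use. The first sequence is the whole window of Nfkbia, the gene for IkB alpha, at chr12:55492648-55492897 on the minus strand. The others are some of the 13 matches found, with 10 bases on either side. All are written 5′ to 3′ along the gene's strand, with the match in capitals.
Nfkbia, 250 bases before the start: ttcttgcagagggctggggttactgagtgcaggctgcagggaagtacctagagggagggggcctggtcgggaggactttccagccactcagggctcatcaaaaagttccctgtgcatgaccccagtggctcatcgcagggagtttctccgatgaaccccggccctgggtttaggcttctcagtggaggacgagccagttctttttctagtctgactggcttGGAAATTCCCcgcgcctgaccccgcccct
Nfkb2, chr19:46304688-46304717, plus strand: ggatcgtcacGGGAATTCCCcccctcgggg
Nfkb2, a later start, chr19:46305695-46305724, plus strand: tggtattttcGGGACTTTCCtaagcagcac
Rel, chr11:23771042-23771071, minus strand: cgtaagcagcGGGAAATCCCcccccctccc
Nfkbid, chr7:30422170-30422199, plus strand: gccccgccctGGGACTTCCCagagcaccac
Nfkbid, the same window, chr7:30422215-30422244, plus strand: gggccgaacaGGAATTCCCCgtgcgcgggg
Nfkbie, chr17:45555584-45555613, plus strand: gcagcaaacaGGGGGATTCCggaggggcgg
Tnfaip3, chr10:19015403-19015432, minus strand: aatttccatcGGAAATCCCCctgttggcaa

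The match in Nfkbia lies 29 to 20 bases before the start, and those printed for Tnfaip3 and Rel lie 12 to 3 and 92 to 83 bases before it. Another match in the same Tnfaip3 window lies 125 to 116 bases before the start, and an overlapping one in Rel 91 to 82. The 6 genes with a match did not share a direction in the libraries. After depletion in IPF-LC, Nfkb2 was higher, Nfkbid was lower and Rel differed by less than its counting interval, as the values below show.

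All 10 genes were well measured, with between 526 counts (Nfkbid) and 53902 counts (Tnfaip3) in a library. To compare levels between genes, TPM values, which account for transcript length, were used. Tnfaip3, which encodes the ubiquitin-editing enzyme A20 that stops signalling upstream of the IkB kinases, had the highest TPM of the 10 in every library, from 883 to 1088. It ranked between 132 and 178 among all genes. Nfkbia came next in every library, from 603 to 784 TPM. Rela (124 to 234 TPM), Nfkb2 (131 to 194) and Relb (93.1 to 154) overlapped in range. Below them were Nfkbie (55.1 to 72.0) and Nfkb1 (34.3 to 53.8), and the range of Nfkbiz (38.2 to 73.4) overlapped both. The ranges of Nfkbid (25.2 to 45.9) and Rel (28.3 to 34.2) reached lowest, and that of Nfkbid overlapped Nfkb1 and Nfkbiz. Rel was last of the 10 in all libraries but depleted IPF-LC, where Nfkbid was last, while in isotype IPF-LC Nfkbid ranked 7 of 10. The 2 cytoplasmic brakes Tnfaip3 and Nfkbia were thus above every subunit on a scale per length in each library, while the order among the 3 leading subunits differed between libraries.

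**Figure D1:**
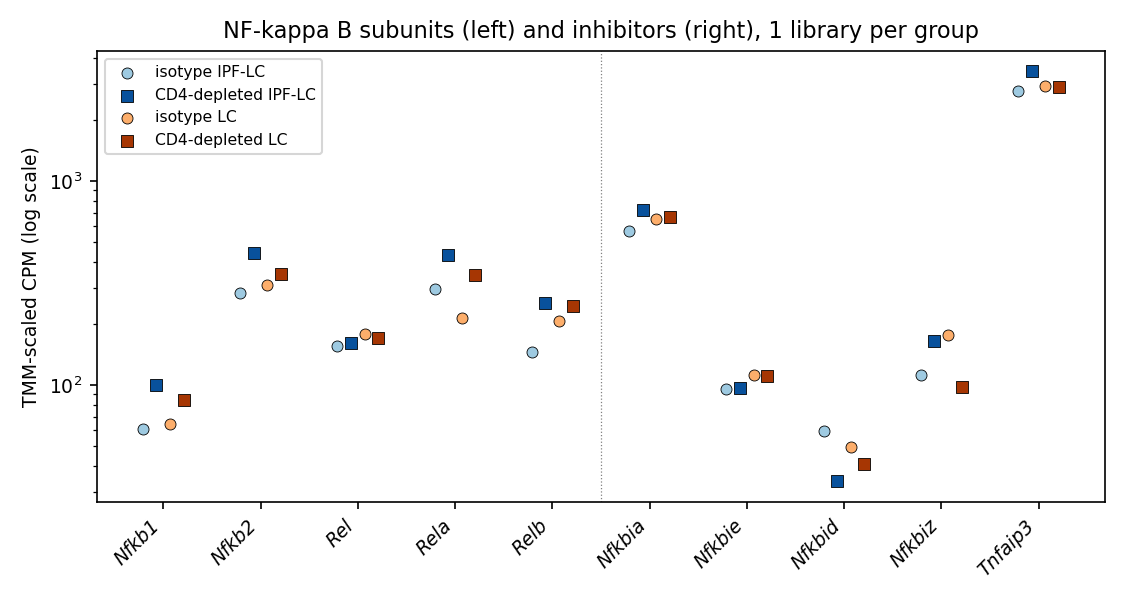
Level of each of the 10 genes in TMM-scaled CPM (log axis), 1 point per library, with subunits and inhibitors apart. Rel and Nfkbie sit nearly at 1 level in all 4 libraries, whereas Rela and Nfkbiz spread most, with a ratio of highest to lowest library of 2.06 and 1.81.

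The labelled cell type was checked against its markers. The 12 markers of CD8 T cells (CD3 chains, CD8 chains, receptor constants and others) were detected in every library and summed to between 6605 and 7834 CPM. All 12 were within 2-fold after depletion, with log2 ratios of -0.57 to 0.18 in IPF-LC and -0.07 to 0.46 in LC. Cd8b1 was at 972 and 654 CPM in the IPF-LC pair, isotype first, and 693 and 828 CPM in the LC pair. Cd8a was at 518 and 353, and 476 and 452 CPM, while Trbc2 was at 1010 and 1035, and 843 and 1066 CPM. Transcripts of other cells varied. Summed over 20 macrophage and monocyte markers, levels were 3250 CPM in isotype IPF-LC, 1222 in depleted IPF-LC, 3704 in isotype LC and 366 in depleted LC. Lyz2 alone was at 2408, 788, 2089 and 33.4 CPM in the same order, most of the sum except in depleted LC. There most of it was Ly6c2 (359, 229, 408 and 211 CPM) and Ccr2 (15.5, 60.2, 76.3 and 102 CPM), and Ccr2 was higher after depletion. In each model 14 of the 16 macrophage and monocyte markers with at least 10 CPM were at least 2-fold lower after depletion. At 0 in depleted LC were 7 of the 20, among them Adgre1, Fcgr1, Marco, Ms4a7, C1qa and Clec7a. Fcgr1 was at 14 and 0 counts in isotype and depleted IPF-LC, and Marco at 0 in both. Structural cells followed the same order. The fibroblast list summed to 232 and 52.5 CPM in IPF-LC, isotype first, and 346 and 17.6 in LC. The epithelial list summed to 59.0 and 26.7, and 128 and 18.1, and the endothelial list to 302 and 157, and 393 and 141. Most of the endothelial sum in the depleted libraries was Pecam1, at 134 and 137, and 145 and 129 CPM. Of the 6 endothelial markers with at least 10 CPM, 5 were at least 2-fold lower after depletion in each model. The CD4 T cell list was higher after depletion, at 134 and 178 CPM, and 97.2 and 208. Most of this sum was Trat1 (81.3 and 107, and 39.1 and 96.5 CPM) and Tnfsf8 (44.4 and 65.6, and 52.9 and 95.9 CPM). Cd4 itself had 73 counts at most and 0 in depleted IPF-LC. Zbtb7b had 28 and 3 counts in the IPF-LC pair and 24 and 27 in the LC pair, and Cd40lg 37 and 83, and 44 and 195. The 10 markers of regulatory T cells, of which none was at 0 in any library, summed to 291 CPM in isotype IPF-LC, 746 in depleted IPF-LC, 577 in isotype LC and 747 in depleted LC. Of the 9 with at least 10 CPM, depletion in IPF-LC left 7 at 2-fold or more above isotype, while in LC 2 were above and 1 was below. Foxp3, which defines regulatory T cells, was at 1.47 and 29.3 CPM in the IPF-LC pair and 3.88 and 32.5 CPM in the LC pair. The 8 neutrophil markers summed to 178 CPM in isotype LC and to between 8.80 and 16.9 CPM in the other libraries. A list of 12 genes of the response to tissue dissociation, which include Fos, Jun and Egr1, summed to 5818, 5236, 6174 and 5022 CPM in the same order, and 3 of the 12 were at least 2-fold lower after depletion in each model, with none higher. Fos, for example, was at 392 and 190 CPM in the IPF-LC pair and 461 and 207 CPM in the LC pair. The part of any of these cells, or of handling, in the NF-kappa B values was not tested. In such bulk samples, fewer cells of a type and less RNA per cell cannot be told apart.

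**Figure D2:**
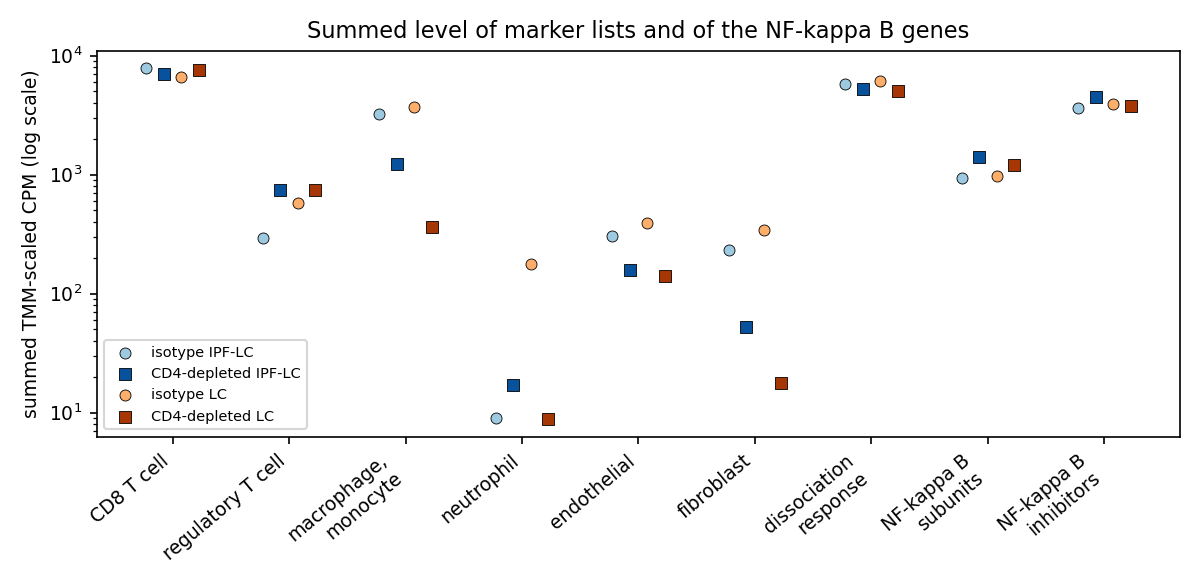
Summed CPM (log axis) of marker lists of other cell types and of CD8 T cells, 1 point per library. The CD8 T cell sum stays between 6605 and 7834 CPM, whereas the macrophage and monocyte sum runs from 366 to 3704 CPM and is lowest in depleted LC. Lyz2 is the largest part of that sum except in depleted LC, where Ly6c2 is.

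After CD4 depletion in IPF-LC, 4 of the 5 subunits were higher than in the isotype library, with log2 ratios of 0.56 to 0.80, and Rel was level. RelB, encoded by Relb, is the partner of p52 in the alternative pathway and was the subunit with the largest ratio. Relb measured 145 CPM with isotype antibody and 253 CPM after depletion, a log2 ratio of 0.80 (95% counting interval 0.72 to 0.87). Nfkb1, the source of p50, was at 60.5 and 99.8 CPM, a log2 ratio of 0.72 (0.60 to 0.84). Nfkb2, the source of p52 and of the inhibitor p100, was at 282 and 446 CPM, a log2 ratio of 0.66 (0.61 to 0.72). These 3 genes are the members at least 1.5-fold higher, a fold chosen after the values were seen. Rela, whose product carries the main activating domain of the canonical dimer, was at 296 and 436 CPM, a log2 ratio of 0.56 (0.50 to 0.61). Rel, encoding the lymphocyte subunit c-Rel, was at 155 and 161 CPM, a log2 ratio of 0.06 (-0.02 to 0.14), so its counting interval includes equality.

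The inhibitors differed more among themselves in this comparison. Nfkbia, the inhibitor that is degraded and resynthesised within a round of signalling, was at 567 CPM with isotype antibody and 723 CPM after depletion, a log2 ratio of 0.35 (0.31 to 0.39). Tnfaip3 was at 2768 and 3458 CPM, a log2 ratio of 0.32 (0.30 to 0.34). Nfkbie, encoding IkB epsilon, was at 95.7 and 96.6 CPM, a log2 ratio of 0.01 (-0.09 to 0.12). Thus of the 2 cytoplasmic IkB genes among the members Nfkbia was higher and Nfkbie was level. The nuclear IkB proteins do not retain dimers in the cytoplasm but act with them on chromatin. The member genes that encode such proteins lay on opposite sides. Nfkbiz, encoding IkB zeta, was at 112 and 165 CPM, a log2 ratio of 0.56 (0.47 to 0.64). Nfkbid, encoding IkB-NS, was at 59.8 and 33.7 CPM, a log2 ratio of -0.82 (-0.98 to -0.67), and was the only member below its isotype library by more than the counting interval.

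None of the 10 genes reached 2-fold in either direction after depletion in IPF-LC, where 4.08% of the 8433 genes that passed the 10 CPM minimum were that far above isotype and 6.02% that far below. At 1.5-fold, 3 members were higher and 1, Nfkbid, was lower, beside 13% and 15% of all genes. The median log2 ratio of the members was 0.45 (subunits 0.66, inhibitors 0.32), beside 0.00 over all genes, and 9 of the 10 were above 0, beside 50.1% of all genes. Single members were not at the edge of the distribution: 15.4% of genes had a larger absolute ratio than Nfkbid, 16.4% a larger one than Relb and 20.3% a larger one than Nfkb1. The macrophage sum was lower in the depleted library (3250 and 1222 CPM) and the regulatory T cell sum was higher (291 and 746 CPM) in this same pair; their part in the NF-kappa B values was not tested.

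In LC, depletion was accompanied by smaller differences for most members. Rela was the gene with the largest ratio upwards, at 212 CPM with isotype antibody and 346 CPM after depletion, a log2 ratio of 0.71 (0.64 to 0.77). Nfkb1 was at 64.3 and 84.7 CPM, a log2 ratio of 0.40 (0.28 to 0.52). Relb was at 206 and 245 CPM, a log2 ratio of 0.25 (0.18 to 0.32). The p52 and c-Rel genes were closer to level. Nfkb2 was at 310 and 349 CPM, a log2 ratio of 0.17 (0.11 to 0.22). Rel was at 177 and 170 CPM, a log2 ratio of -0.07 (-0.14 to 0.01). The ratios of Nfkb2 and Relb turned to -0.11 and -0.0232 when libraries were scaled to their CD3 chain counts, and that of Nfkb1 was 0.12 on the TPM scale. Rela had a positive ratio in both models with each scaling tried.

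Of the inhibitors in LC, 3 were level with the isotype library within their counting intervals. Nfkbia was at 651 and 665 CPM, a log2 ratio of 0.03 (-0.01 to 0.07). Tnfaip3 was at 2919 and 2897 CPM, a log2 ratio of -0.01 (-0.03 to 0.01). Nfkbie was at 113 and 111 CPM, a log2 ratio of -0.02 (-0.12 to 0.08). Both nuclear IkB genes among the members were lower. Nfkbiz was at 176 and 97.2 CPM, a log2 ratio of -0.85 (-0.94 to -0.76), and Nfkbid at 49.4 and 40.8 CPM, a log2 ratio of -0.28 (-0.43 to -0.12). Nfkbiz is also transcribed strongly by macrophages under microbial stimuli, and the macrophage sum was 3704 CPM in the isotype library and 366 CPM in the depleted one. The neutrophil sum was 178 and 8.80 CPM; the part of either cell type in the Nfkbiz value was not tested.

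No member reached 2-fold in LC, where 2.59% of genes were that far above isotype and 5.85% that far below. At 1.5-fold, 1 member (Rela) was higher and 1 (Nfkbiz) was lower, beside 9.28% and 11% of all genes. The median of the 10 was 0.01, beside 0.06 over all genes, and 5 were above 0, beside 56.1% of all genes. The subunits had a median of 0.25 and the inhibitors one of -0.02. Absolute ratios larger than that of Nfkbiz were found for 11.3% of genes, and larger than that of Rela for 15.3%.

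**Figure D3:**
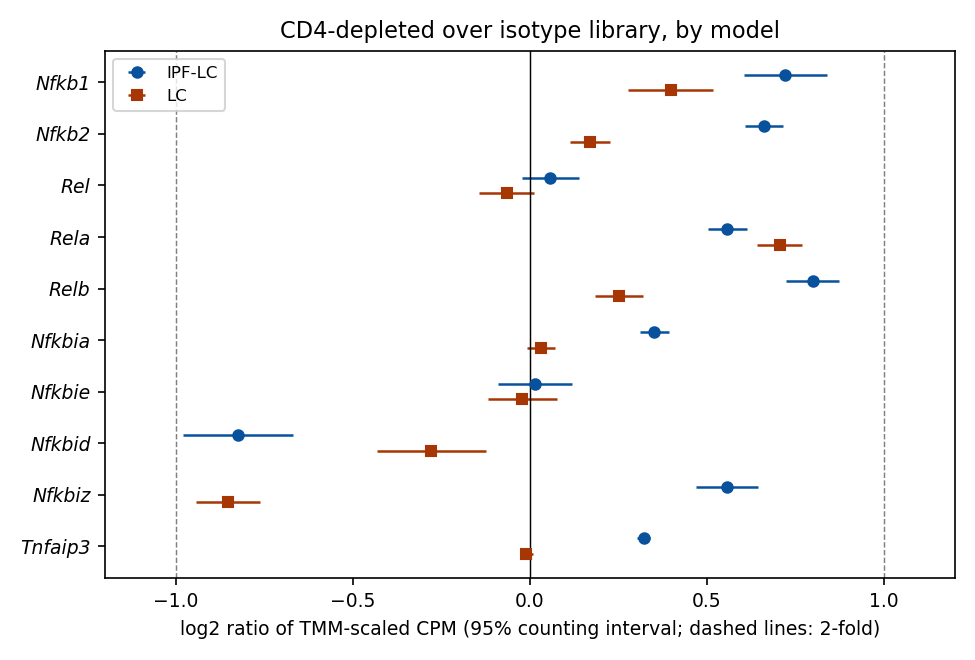
Log2 ratio of the CD4-depleted over the isotype library for each of the 10 genes in IPF-LC and in LC; bars are 95% counting intervals, which cover counting error only. Nfkbiz lies at 0.56 in IPF-LC and at -0.85 in LC, Rela lies near 0.6 to 0.7 in both, and Rel and Nfkbie lie near 0 in both.

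Ratios between members within 1 library do not depend on how libraries are scaled. The counts of Rela per count of Rel were 1.91 in isotype IPF-LC and 2.7 in depleted IPF-LC, and 1.19 in isotype LC and 2.04 in depleted LC. The log2 change of this ratio with depletion was 0.50 (0.40 to 0.60) in IPF-LC and 0.77 (0.67 to 0.87) in LC. Relb per Rel was 0.938 and 1.57 in the IPF-LC pair, isotype first, and 1.16 and 1.44 in the LC pair, and Nfkb1 per Rel was 0.390 and 0.618, and 0.362 and 0.499. In both models the depleted library therefore held more Rela, Relb and Nfkb1 counts for each count of Rel. The ratio of Nfkb2 to Nfkb1 was steadier, between 4.12 and 4.83 in the 4 libraries. Between the nuclear IkB genes among the members the ratio moved in opposite directions. Nfkbiz per Nfkbid was 1.87 in isotype and 4.88 in depleted IPF-LC, but 3.55 in isotype and 2.38 in depleted LC.

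The depletion ratio in IPF-LC minus that in LC shows where the models differed. For Nfkbiz this difference was 1.41 on the log2 scale (counting interval 1.28 to 1.53), with the gene higher after depletion in IPF-LC and lower in LC. It was the 1 member at least 2-fold apart, beside 8.05% of all genes upwards and 6.33% downwards in this measure, and 6.97% of genes had a larger absolute difference. Relb (0.55), Nfkb2 (0.49), Tnfaip3 (0.33), Nfkb1 (0.32) and Nfkbia (0.32) also had the larger ratio in IPF-LC, and Nfkbid (-0.55) the lower. Rela had a difference of -0.15, which became 0.32 with CD3 chain scaling. With 1 library per group the difference has no residual degree of freedom and was not tested.

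The test that was run across libraries takes the depletion ratio common to both models, in an additive model whose 1 residual degree of freedom is the interaction. With edgeR's quasi-likelihood test, 0 of 13050 genes passed a Benjamini-Hochberg adjusted p under 0.05 (0%), and so did 0 of the 10 members. At an unadjusted p under 0.05 there were 409 genes higher, 896 lower and 2 members. Rela had a joint log2 ratio of 0.61 (SE 0.169) with an edgeR adjusted p of 0.381, and Nfkb1 one of 0.54 (SE 0.212) with an edgeR adjusted p of 0.495. These were the 2 members. Over the 10 genes edgeR's adjusted p ran from 0.381 to 0.987. DESeq2 in the same design called 481 genes (3.69%), Rela among them as the 1 member called, with a log2 ratio of 0.62 and an adjusted p of 0.0488, and limma-voom called 0 genes, with 476 higher and 1142 lower at an unadjusted p under 0.05. Over these and the other alternatives of filter and scaling, the adjusted p of Rela ran from 0.0488 (DESeq2) to 0.543 (edgeR with no filter on level). Rela was higher after depletion in 2 of 2 pairs of libraries.

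The models themselves were compared within each antibody, with the caution that these comparisons use the same 4 libraries and that a model effect common to both antibodies was not tested. With isotype antibody, Rela was higher in IPF-LC than in LC (296 and 212 CPM), a log2 ratio of 0.48 (0.42 to 0.55). With CD3 chain scaling this ratio was 0.05. Nfkbiz (112 and 176 CPM) and Relb (145 and 206 CPM) were lower in IPF-LC, with log2 ratios of -0.65 (-0.74 to -0.56) and -0.50 (-0.58 to -0.42). Nfkbid was higher at 0.27 (0.13 to 0.41), and this turned to -0.16 with CD3 chain scaling. No member reached 2-fold, beside 1.91% of genes upwards and 4.1% downwards, and at 1.5-fold Nfkbiz alone was lower, beside 8.44% higher and 10.2% lower. Only Rela and Nfkbid of the 10 were above 0, beside 52.5% of all genes, and the median of the members was -0.17, beside 0.02 over all genes.

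After depletion the order of the models turned for several members. Nfkbiz was now the gene with the largest ratio of IPF-LC over LC, at 165 and 97.2 CPM, a log2 ratio of 0.76 (0.67 to 0.85). Nfkb2 was at 446 and 349 CPM, a log2 ratio of 0.36 (0.30 to 0.41), and Rela at 0.34. Tnfaip3 had a log2 ratio of 0.26 and Nfkb1 one of 0.24, while Nfkbid was lower at -0.27. Of the 10 genes 7 were above 0, beside 49.9% of all genes, and none was 2-fold apart, beside 3.3% of genes upwards and 2.57% downwards. At 1.5-fold, Nfkbiz was higher, beside 9.14% and 8.6% of all genes. Rela was thus higher in IPF-LC than in LC with both antibodies, and Nfkbiz changed sides. Nfkbid changed sides the other way, but with CD3 chain scaling it was below 0 with both antibodies (-0.16 and -0.24).

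**Figure D4:**
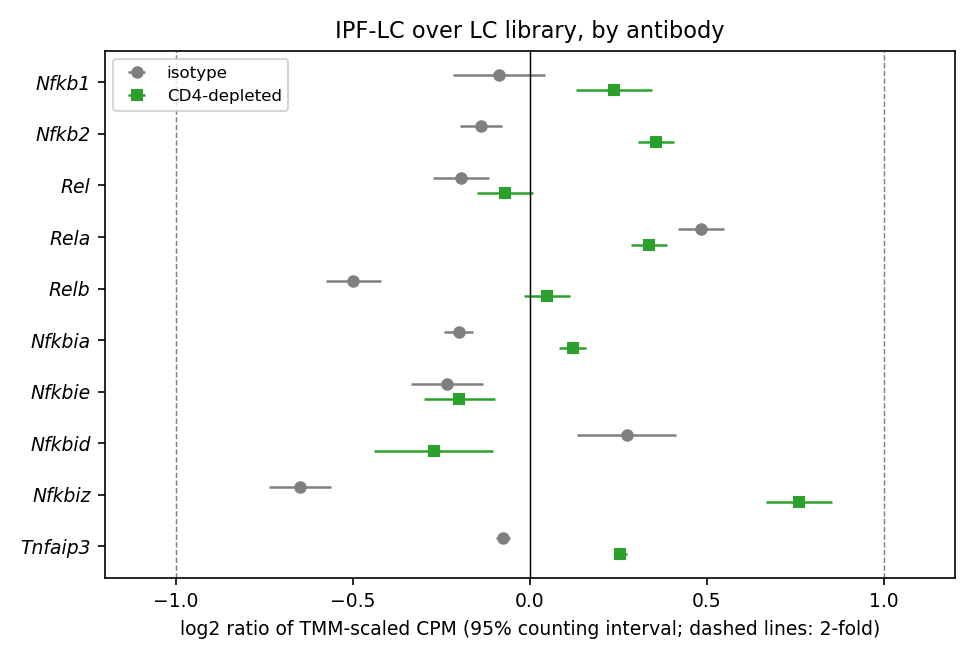
Log2 ratio of IPF-LC over LC for the 10 genes, with isotype antibody and after CD4 depletion; bars are 95% counting intervals. Nfkbiz moves from -0.65 with isotype antibody to 0.76 after depletion, and Rela is above 0 with both.

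Other genes of the pathway were taken from 8 lists with 97 genes, of which 81 had at least 10 CPM. Their counts past 2-fold can be set beside all genes, of which 4.08% were higher and 6.02% lower in IPF-LC and 2.59% and 5.85% in LC. Of the 10 genes of the kinase complexes, 0 were 2-fold apart in IPF-LC and 1 was higher in LC: Map3k7, encoding the kinase TAK1, was at 36.2 CPM with isotype antibody and 92.4 CPM after depletion (log2 ratio 1.35), with 48.0 and 76.6 CPM in IPF-LC. Of 6 genes of the relay from the T cell receptor, 0 were 2-fold apart in either model. Among these, Traf6, a ubiquitin ligase, was at 115 and 226 CPM in IPF-LC and at 179 and 196 CPM in LC. Of the 8 TRAF and cIAP genes, 0 were 2-fold apart in IPF-LC and 1, Traf3, was higher in LC. Traf5, an adaptor of TNF family receptors, was just inside 2-fold in IPF-LC, at 25.0 and 12.6 CPM. Traf3, which restrains the alternative pathway, was at 26.6 and 56.5 CPM in LC but 57.8 and 42.3 CPM in IPF-LC. The remaining IkB genes, Nfkbib and Bcl3, were within 2-fold in both models. Nfkbib was at 98.4 and 157 CPM in IPF-LC and 126 and 130 CPM in LC. Bcl3 was at 83.7 and 99.0 CPM in IPF-LC and 92.7 and 75.4 CPM in LC.

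A list of ubiquitin-editing enzymes and other regulators was set beside Tnfaip3. It holds mainly brakes, but also Rnf31, Rbck1 and Sharpin, whose products assemble linear ubiquitin and promote kinase activation. Of its 13 measured genes, 2 were at least 2-fold higher in IPF-LC and 1 in LC, with none lower. Otulin, which removes linear ubiquitin chains, was at 22.8 and 56.8 CPM in IPF-LC and 13.1 and 53.8 CPM in LC, log2 ratios of 1.32 and 2.03. Zc3h12a, whose product Regnase-1 cuts inflammatory mRNAs, was at 23.3 and 74.1 CPM in IPF-LC (log2 ratio 1.67) and 34.3 and 41.4 CPM in LC. Tnip1, an adaptor of A20, was at 165 and 324 CPM in IPF-LC and 184 and 270 CPM in LC. Tnip2, a related adaptor, had log2 ratios of 0.81 in IPF-LC and -0.91 in LC. The list median was 0.37 in IPF-LC and 0.16 in LC.

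Upstream receptors and ligands included the widest differences. Of 14 receptor and adaptor genes 3 were at least 2-fold higher and 1 lower in IPF-LC, and 1 higher and 3 lower in LC. Tnfrsf4, encoding the costimulator OX40, was at 2.24 CPM in isotype IPF-LC and at 28.1, 26.3 and 32.5 CPM in the depleted IPF-LC, isotype LC and depleted LC libraries, so that the isotype IPF-LC library stood apart. Tnfrsf9, encoding 4-1BB, was at 14.2 and 51.3 CPM in IPF-LC and 99.9 and 41.7 CPM in LC. Both genes are also on the regulatory T cell marker list. Tlr2, a receptor of bacterial lipopeptides that myeloid cells express, was at 51.6 and 13.2 CPM in IPF-LC and 137 and 13.7 CPM in LC. Of 4 ligand genes with at least 10 CPM, 3 were at least 2-fold lower in each model. Il1b, an interleukin made mainly by myeloid cells, was at 98.9 and 21.1 CPM in IPF-LC and 54.2 and 2.30 CPM in LC. Il1a had 630 counts in isotype LC and 0 after depletion, at least 213-fold lower against a floor of 3 counts per library. Tnf was at 9.21 and 3.02 CPM in IPF-LC and 20.6 and 7.46 CPM in LC. The macrophage sum was lower in the same libraries as Tlr2, Il1b and Il1a, and its part in these values was not tested.

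Genes known as NF-kappa B targets were mixed in direction in IPF-LC, whereas in LC all those past 2-fold were lower. Of 24 with at least 10 CPM, in IPF-LC 5 were higher after depletion by 2-fold or more and 4 lower, with a median of 0.04. In LC 0 were higher and 8 lower, with a median of -0.51. Over all genes 4.08% were higher and 6.02% lower in IPF-LC, and in LC 2.59% were higher and 5.85% lower. The 5 higher in IPF-LC, named after their values were seen, were Bcl2a1d, Slc3a2, Pim1, Ccl4 and Il2ra. Slc3a2, a subunit of amino acid transporters, was at 194 and 468 CPM in IPF-LC and 302 and 321 CPM in LC. Ccl4, a chemokine gene, was at 24.6 and 53.8 CPM in IPF-LC but 41.7 and 9.12 CPM in LC. Bcl2a1d has near-identical copies, between which reads may be split. Ier3, an immediate early survival gene, was at 55.2 and 6.54 CPM in IPF-LC and 76.0 and 3.44 CPM in LC. Cxcl2, a neutrophil chemokine gene, was at 74.4 and 32.8 CPM in IPF-LC and 163 and 3.76 CPM in LC. Ptgs2, encoding cyclooxygenase-2, had 330 counts in isotype LC and 0 after depletion, at least 112-fold lower. The macrophage sum was lower in the same libraries (3250 and 1222 CPM in IPF-LC, 3704 and 366 CPM in LC), and its part in the target values was not tested.

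**Figure D5:**
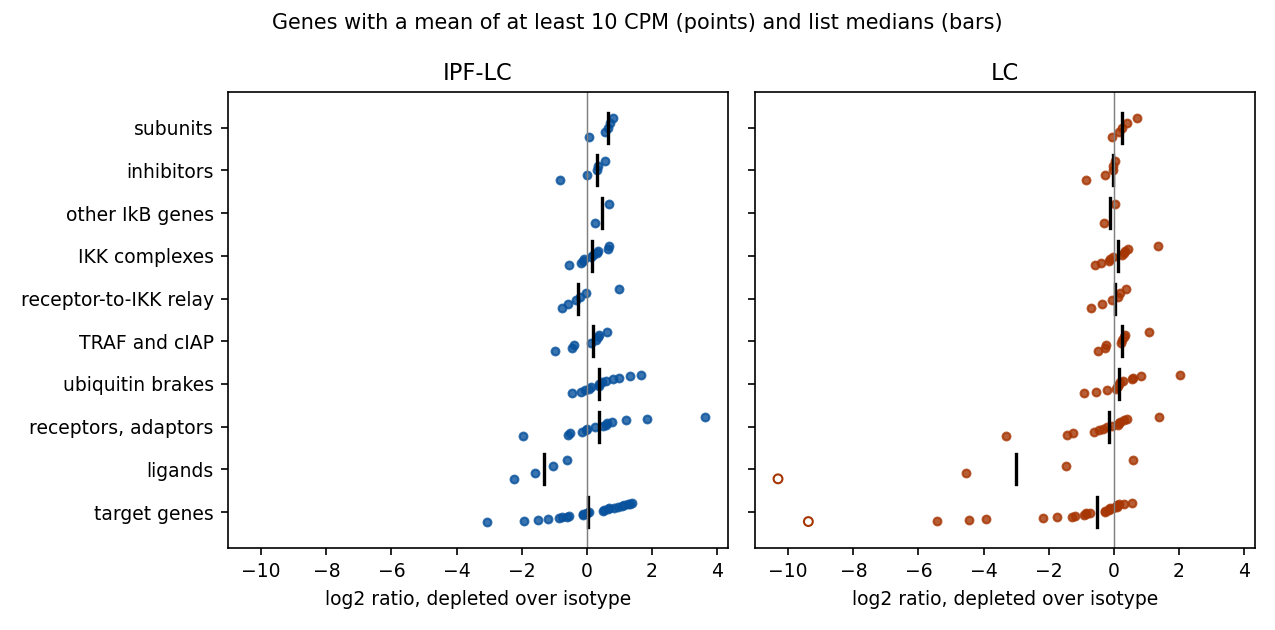
Log2 ratio of the depleted over the isotype library for the genes of each pathway list with at least 10 CPM, in IPF-LC and in LC; bars mark list medians. Open points are genes with 0 counts after depletion, whose plotted ratio depends on the prior count; the ligand median is -1.33 in IPF-LC and -3.00 in LC and those of the subunits are 0.66 and 0.25.

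Genes outside the pathway lists with the pattern nearest to the mean of the 10 members were sought among 8104 genes by the distance between log2 CPM values centred over the 4 libraries. Cyfip2 was the nearest (distance 0.0168), with centred values of -0.15, 0.17, -0.03 and 0.02 in isotype IPF-LC, depleted IPF-LC, isotype LC and depleted LC. Ist1 (0.0349), Snrpb (0.0376), Tmem183a (0.0398) and Pias2 (0.0403) followed, and 122 genes lay closer than a distance of 0.1. Of the members themselves only Nfkbia (0.0568) and Tnfaip3 (0.0828) lay that close to their mean, and the other 8 lay at 0.246 to 0.839, so the mean describes few of them. With 4 libraries, likeness of this kind is a description of these libraries only.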

How the data were processed

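The authors deposited 1 gene table per library with expected counts, which are estimated reads per gene, not normalised. The names of these tables use other condition words than the labels; libraries were assigned by the labels. The tables also hold deposited TPM values, which the authors scaled for transcript length and to the same sum in each library. RSEM 1.3.3, STAR 2.7.11a, MultiQC 1.25.2 and fastp 0.23.4 are listed, with no role, in the submitters' processing notes, as is the build GRCm39; the annotation release is not given in the sources used here. RNA was reverse-transcribed with a low-input kit, per the labels' protocols, and counts are not of unique molecules, so intervals cover counting error only.

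Expected counts were rounded, since between 5.49 and 5.89% were not whole, and scaled by TMM factors of 0.961 to 1.03 to CPM with edgeR 4.0.16 in R 4.3.3. Log2 ratios use a prior count of 0.5 and exact conditional binomial 95% intervals. That of the difference between depletion ratios is a normal approximation. Folds against 0 use a floor of 3 counts. Pairs of single libraries get no p-value. The additive model, two-sided, was run in edgeR on genes passing filterByExpr and again in DESeq2 1.42.0 and limma 3.58.1. On simulated counts the mean ratio and, under counting error alone, the intervals were checked. No requirement was set there for the edgeR test, or for intervals under added spread between libraries. TPM ratios use a pseudocount of 0.1.

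The members, gene lists and tests were chosen with earlier results of these data known. Up to 3 genes of each pathway list per depletion comparison, those with the largest absolute ratio, could be named; not all were, and some are not reported here. The 1.5-fold minimum and the dissociation list were chosen after the values were seen. Among the marker lists not described in the report, sums over the 4 libraries ran from 2049 to 2472 CPM for dendritic cells, 300 to 495 for B cells, 48.5 to 136 for NK cells, and 32.6 to 85.0 for gamma delta T cells. Mitochondrially encoded genes took 1.39 to 1.82% of counts.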

Additional observations from a re-analysis of the deposited data

Results flagged for a closer look

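Nfkbiz, the gene for the nuclear regulator IkB zeta, lay above its isotype library after CD4 depletion in IPF-LC but below it in LC, and these ratios differed by 1.41 on the log2 scale. Its levels were 112 and 165 CPM in IPF-LC and 176 and 97.2 CPM in LC, isotype first. The difference was not tested, because each group is 1 library. The macrophage and monocyte markers summed to 3250 and 1222 CPM in IPF-LC and 3704 and 366 CPM in LC, and their part in the Nfkbiz value was not tested.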

How the results depend on the processing

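Libraries were rescaled by library total, DESeq2 size factors, upper quartile or CD3 chain counts, or read as TPM, and the prior count was raised; of 300 member values under these alternatives 15 changed sign, and for 4 of these the counting interval of the reported value had left out 0. The rest had reported values near 0. Among them, by library total, were Rel and Nfkbie after depletion in IPF-LC (-0.0172 and -0.0613) and Nfkbia in LC (-0.0263). With CD3 chain scaling Nfkbia in LC moved further, to -0.24. Among the named genes, CD3 chain scaling gave 20 of the 24 sign changes of values whose interval had left out 0, and it shifted the median of all genes to 0.19 for depletion in IPF-LC, -0.22 in LC, -0.41 for the models with isotype antibody and 0.45 for the difference of depletion ratios. Under it, depletion ratios in LC became -0.11 for Nfkb2, -0.0232 for Relb, -0.14 for Traf6, -0.0849 for Prkcq, -0.00322 for Zc3h12a and -0.22 for Cyfip2, and that of Ikbke in IPF-LC became 0.00325. IPF-LC over LC with isotype antibody became -0.16 for Nfkbid, -0.0269 for Map3k7, -0.0617 for Tab3, -0.0282 for Ikbke, -0.0689 for Prkcq, -0.21 for Bcl10, -0.0356 for Mib2, -0.35 for Traf1, -0.0342 for Il18r1 and -0.0769 for Il1a. The difference of depletion ratios became 0.32 for Rela, 0.0659 for Bcl10 and 0.22 for Rnf11. On the TPM scale Malt1 became 0.0237 for depletion in IPF-LC, Traf1 -0.0561 for the models with isotype antibody and Cyfip2 -0.0232 for depletion in LC, and by library total Cyfip2 was -0.00050. Members at least 2-fold lower numbered 1 with CD3 chain scaling for depletion in LC and 1 for the models with isotype antibody, and members higher in the difference numbered 2. At 1.5-fold, chosen after seeing the data, the counts of higher and lower members were 3 and 1 for depletion in IPF-LC and 1 and 1 in LC, 1 was lower between the models with isotype antibody, and 1 was higher after depletion. DESeq2 called 1 member, Rela, in the joint model. By library total, 7 of 10 members were above 0 after depletion in IPF-LC. When the minimum was 1 CPM, 8.84% of genes were 2-fold higher and 13.6% lower after depletion in IPF-LC and 5.85% and 15.4% in LC; with at least 50 CPM, 1.55% were lower in IPF-LC and 1.58% and 1.65% higher and lower in LC. The joint model in edgeR called 134 genes when only those with at least 10 CPM were tested, and 0 members. The cause of these changes was not tested. The additive model already pairs the libraries by model, and leaving out a library would leave it no residual degree of freedom, so none was left out.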
